A study of Mus musculus with 14 samples.

Results

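The genes described here encode the amino acid and neurotransmitter transporters of the Slc1a, Slc6a, Slc7a and Slc38a families, membrane proteins that carry glutamate, GABA, glycine, taurine, creatine, monoamines and amino acids across cell membranes. They were taken by symbol, as every gene whose array symbol begins with one of these 4 family names followed by a digit, which gave 53 of the 23152 genes with a symbol of their own on the array. Of these, 47 were bright enough to be tested, and 6 fell among the dimmest 25% of genes and were not tested (Slc6a14, Slc6a16, Slc7a9, Slc7a12, Slc7a13 and Slc38a4). One of the 47, Slc7a6os, was matched by its symbol but is a gene on the opposite strand of Slc7a6 and not a carrier. Expression was measured on 14 Affymetrix whole-transcript arrays in neural stem cell cultures grown from the subventricular zone of 4-day-old mice. Each of 7 clones came from a different animal, and all 7 had been transduced with adenoviral Cre, so that the controls carry this treatment too. Clones 5, 6 and 7 derive from animals with floxed Cic alleles and lack Cic after Cre (Cic-/-), and clones 1 to 4 are the wild type controls (Cic+/+). Every clone was kept for 24 h in NeuroCult proliferation medium with EGF and, in a separate culture, without it, which gave 3 Cic-/- arrays with EGF, 4 Cic+/+ arrays with EGF, 3 Cic-/- arrays without EGF and 4 Cic+/+ arrays without EGF.

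Slc1a proteins use the sodium gradient to clear glutamate and aspartate or to exchange small neutral amino acids, and Slc6a proteins use sodium and chloride to take up GABA, glycine, taurine, creatine and monoamines. Slc7a proteins carry cationic amino acids on their own or, as light chains joined to the heavy chains Slc3a2 or Slc3a1, exchange amino acids one for another, and Slc38a proteins move glutamine, alanine and other neutral amino acids. In the brain, astrocytes are known for glutamate and GABA uptake and for passing glutamine back to neurons, and dividing cells are known for high uptake of glutamine and leucine. The Cic protein, capicua, represses transcription and is itself held back by growth factor signalling, and EGF is the growth factor that keeps these stem cells dividing.

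Array medians lay between 6.49 and 6.54 (log2), and pairs of arrays correlated at 0.930 to 0.973. Their number limits the precision of every comparison. Cic itself lay at 7.04 to 7.67 in the Cic-/- arrays and at 9.18 to 9.69 in the Cic+/+ arrays. Its signal in Cic-/- was thus lower but not absent, and still above every array median. Clone 4 stood apart in Xist, the transcript of the inactive X chromosome, with 4.73 with EGF and 3.83 without it, against 11.96 to 12.57 in the other clones. Of the defining markers of neural stem cells, Sox2 (11.14 to 11.98), Vim and Fabp7 were bright in every array and Nes was at 8.05 to 10.60, while Prom1 lay near the limit of 4.40 used for dim genes, at 4.25 to 5.57. The microglial markers Aif1 (3.79 to 4.79) and Ptprc lay near or under that limit. Of all 8 microglial markers, 6 were above it by their mean, and the mean level of the 8 was 4.86 to 5.27 over the arrays.

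Promoter windows of 300 bases, reaching from 250 bases before a RefSeq transcript start to the first 50 bases after it (build GRCm38.p6), were at hand for 38 of the 53 genes, as 58 windows. The windows of Slc1a1, Slc1a2 and Slc6a11 are shown because these uptake genes were lower with EGF in all 7 clones, as described below. The window of Slc6a13 is shown because it was the only one of the 58 with an octamer bound by CIC in other systems.
Slc1a1, chr19:28834885-28835184, plus strand: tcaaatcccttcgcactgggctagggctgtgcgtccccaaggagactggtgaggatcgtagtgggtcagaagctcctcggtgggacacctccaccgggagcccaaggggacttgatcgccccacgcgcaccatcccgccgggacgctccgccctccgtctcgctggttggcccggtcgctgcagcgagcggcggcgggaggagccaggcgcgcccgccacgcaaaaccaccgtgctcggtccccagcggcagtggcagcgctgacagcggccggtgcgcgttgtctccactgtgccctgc
Slc1a2, chr2:102706188-102706487, plus strand: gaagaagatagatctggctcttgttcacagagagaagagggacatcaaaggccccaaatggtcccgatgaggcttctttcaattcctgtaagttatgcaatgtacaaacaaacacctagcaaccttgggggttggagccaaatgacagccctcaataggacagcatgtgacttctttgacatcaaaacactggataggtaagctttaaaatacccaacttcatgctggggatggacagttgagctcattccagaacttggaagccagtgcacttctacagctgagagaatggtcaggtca
Slc6a11, chr6:114130991-114131290, plus strand: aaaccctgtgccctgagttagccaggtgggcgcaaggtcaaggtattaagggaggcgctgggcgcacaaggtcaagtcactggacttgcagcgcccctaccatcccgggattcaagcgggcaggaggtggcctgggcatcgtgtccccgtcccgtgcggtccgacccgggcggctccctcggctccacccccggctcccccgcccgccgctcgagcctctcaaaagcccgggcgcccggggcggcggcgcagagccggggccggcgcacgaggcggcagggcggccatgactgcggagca
Slc6a13, chr6:121303389-121303688, plus strand: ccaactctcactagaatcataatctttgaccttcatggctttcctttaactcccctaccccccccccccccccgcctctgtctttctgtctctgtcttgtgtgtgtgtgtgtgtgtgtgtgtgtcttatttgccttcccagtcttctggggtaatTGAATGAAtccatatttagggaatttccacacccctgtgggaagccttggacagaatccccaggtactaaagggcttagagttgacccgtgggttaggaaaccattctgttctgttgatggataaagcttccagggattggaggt
Capitals mark the octamer TGAATGAA, which starts at base 156 of the Slc6a13 window. TGAATGAA and TGAATGGA were searched on both strands, that is also as TTCATTCA and TCCATTCA. The first was in 1.3% of all 32851 windows and the second in 1.21%, and in 1 and 0 of the 58 windows of these transporters. A match is a stretch of letters and was not tested as a binding site, and no match says only that these letters are not in the window.

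The first comparison asks how these transporters differed between 24 h with EGF and 24 h without it, in cultures with and without Cic. In both genotypes the uptake genes for glutamate (Slc1a1 and Slc1a2), GABA (Slc6a11) and glycine (Slc6a9), the glutamine carrier Slc38a3 and the arginine carrier Slc7a2 lay lower with EGF, and the taurine carrier Slc6a6 and the glutamine carrier Slc1a5 lay higher. Over all 7 clones, 4 of the 47 tested genes were higher with EGF in every clone (Slc1a5, Slc6a6, Slc38a1 and Slc38a2) and 9 were lower in every clone (Slc1a1, Slc1a2, Slc1a4, Slc6a9, Slc6a11, Slc7a2, Slc7a8, Slc7a14 and Slc38a3). Together they are 27.7% of the 47, where 13.5% of all 17364 tested genes went 1 way in all 7 clones. By direction, 1048 of the 17364 genes were higher in every clone and 1290 were lower. The share of transporters higher in every clone thus lay nearer to that of all genes than the share lower in every clone.

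The 2 cultures of a clone come from the same animal, and the fit with the clone as a random block takes this pairing into account. In limma without the block, 1 of 47 genes passed in Cic-/- (Slc6a6, higher) and 1 of 47 in Cic+/+ (Slc7a2, lower), at an adjusted p under 0.05, where 0.190% and 0.898% of all tested genes passed (0.0979% higher and 0.0921% lower in Cic-/-, and 0.305% higher and 0.593% lower in Cic+/+). An unadjusted p under 0.05 was found for 10 of 47 in Cic-/- and 11 of 47 in Cic+/+, against 9.80% and 12.5% of all tested genes. The arrays with and without EGF did not overlap for 10 of 47 genes in Cic-/- and 7 of 47 in Cic+/+, against 13.0% and 8.39% of all tested genes. With the clone as a block, 9 passed in Cic-/- (2 higher and 7 lower) and 8 in Cic+/+ (2 higher and 6 lower), which is 19.1% and 17.0% of the 47, where 2.08% of all tested genes passed in Cic-/- (1.00% higher and 1.08% lower) and 5.17% in Cic+/+ (1.97% higher and 3.20% lower). The 8 that passed in Cic+/+ were all among the 9 that passed in Cic-/-. Of all genes that passed with the block, 199 did so in both genotypes, which is 55.1% of the 361 of Cic-/- and 22.2% of the 897 of Cic+/+. In what follows a level is a log2 value, a change is a log2 difference with its SE from limma, and p values are adjusted over all 17364 genes. A p that is said to be with the block comes from the fit with the clone as a random block.

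Among the glutamate carriers, Slc1a2 (GLT1), the main glutamate uptake protein of mature astrocytes, had the largest change. In Cic-/- clones 5, 6 and 7 it stood at 9.71, 8.55 and 7.83 with EGF, against 10.69, 10.39 and 9.53 without it. In Cic+/+ clones 1 to 4 it stood at 7.35, 7.06, 8.09 and 8.77 with EGF, against 9.54, 9.07, 9.79 and 10.13 without it. Each of the 7 clones was lower with EGF, and the 2 media overlapped in Cic-/- (clone 5 with EGF lay above clone 7 without it) and did not overlap in Cic+/+. The change was -1.50 ± 0.49 in Cic-/- (adjusted p = 0.296; 0.0454 with the block) and -1.82 ± 0.43, or 3.52-fold, in Cic+/+ (adjusted p = 0.0689; 0.00466 with the block). With the block, the Cic+/+ call held whichever 1 of the 7 clones was left out (adjusted p up to 0.0394), and the Cic-/- call held only without clone 4. Taken from its brightest probeset alone, the Cic-/- change was -0.88 (adjusted p = 0.55 without the block).

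Slc1a1 (EAAT3), a glutamate and cysteine carrier of neurons and other cells, followed the same course. With EGF it stood at 9.10, 8.10 and 7.21 in clones 5 to 7, against 9.70, 10.09 and 8.90 without EGF. In clones 1 to 4 the values were 7.97, 8.77, 9.05 and 8.79 with EGF, against 9.57, 10.54, 10.33 and 9.86 without it. Clone 5 changed least, by -0.59, and clone 6 most, by -1.99, and the media overlapped in Cic-/- and not in Cic+/+. The changes were -1.42 ± 0.44 in Cic-/- (adjusted p = 0.251; 0.0413 with the block) and -1.43 ± 0.38 in Cic+/+ (adjusted p = 0.1; 0.0119 with the block), and the blocked calls were lost without clone 2, 3, 4, 6 or 7 in Cic-/- (adjusted p up to 0.23) and without clone 2 or 3 in Cic+/+ (up to 0.104). Slc1a3 (GLAST), the glutamate carrier of radial glia and astrocytes, was bright in every array (11.87 to 13.15) and differed by -0.13 ± 0.19 in Cic-/- and -0.33 ± 0.17 in Cic+/+, without passing in either fit. The cerebellar and retinal carriers Slc1a6 and Slc1a7 did not pass either, with -0.43 ± 0.25 and 0.25 ± 0.24 in Cic-/- and 0.07 ± 0.22 and 0.18 ± 0.21 in Cic+/+.

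**Figure D1:**
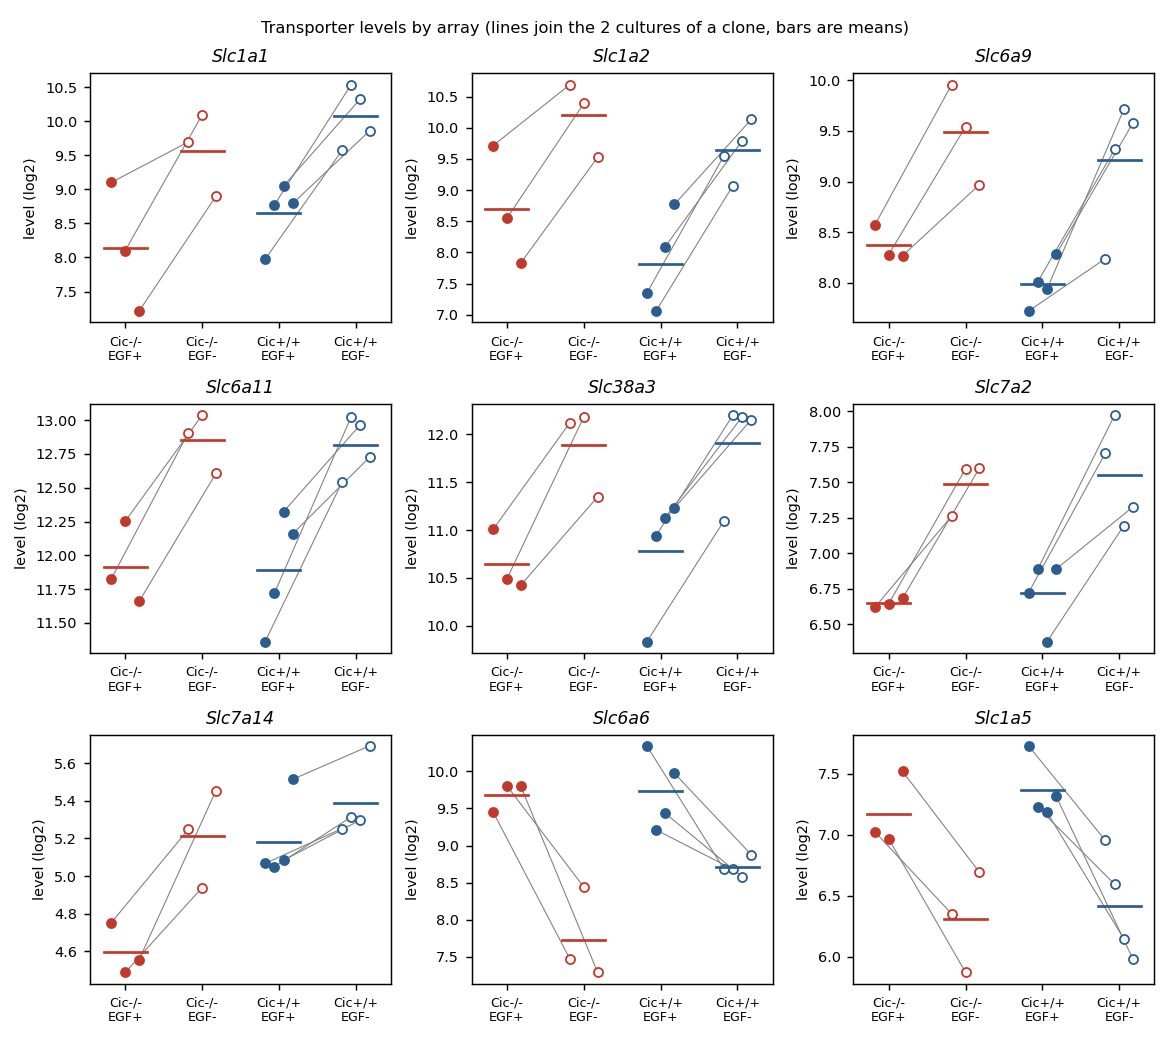
Log2 level of 9 transporter genes on each array, by group along the x axis, where lines join the 2 cultures of a clone and bars are group means. Every line of Slc1a1, Slc1a2, Slc6a9, Slc6a11, Slc38a3, Slc7a2 and Slc7a14 runs up from EGF+ to EGF-, and every line of Slc6a6 and Slc1a5 runs down.

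The exchangers of small neutral amino acids went opposite ways. Slc1a5 (ASCT2), which brings glutamine into dividing cells, stood at 7.02, 6.97 and 7.52 in clones 5 to 7 with EGF, against 6.35, 5.87 and 6.69 without it. In clones 1 to 4 it stood at 7.73, 7.23, 7.19 and 7.32 with EGF, against 6.95, 6.59, 6.15 and 5.98 without it. All arrays with EGF lay above all arrays without it in each genotype. The change was 0.87 ± 0.27 in Cic-/- (adjusted p = 0.266; 0.0448 with the block) and 0.95 ± 0.23, or 1.93-fold, in Cic+/+ (adjusted p = 0.0844; 0.00787 with the block). The blocked calls were lost in Cic-/- without any clone but clone 1 (adjusted p up to 0.197) and in Cic+/+ without clone 3 or 4 (up to 0.0643). With the brightest probeset the Cic-/- change was 0.51 (adjusted p = 0.743 without the block). Slc1a4 (ASCT1), a serine and alanine exchanger, was lower with EGF in every clone, by -0.01 to -1.32, and passed in neither fit (-0.63 ± 0.45 in Cic-/- and -0.48 ± 0.39 in Cic+/+).

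Slc6a6 (TauT), which takes up taurine, the osmolyte of brain cells, had the largest rise of the 47 genes. It stood at 9.45, 9.80 and 9.80 in Cic-/- clones 5 to 7 with EGF, against 7.47, 8.44 and 7.29 without it. In Cic+/+ clones 1 to 4 it stood at 10.34, 9.21, 9.43 and 9.97 with EGF, against 8.69, 8.68, 8.58 and 8.88 without it. No array with EGF overlapped one without it in either genotype, and the Cic-/- arrays without EGF were the lowest of the 14. The rise in Cic-/- was 1.95 ± 0.30, or 3.86-fold (adjusted p = 0.0165; 0.00165 with the block), and the change in Cic+/+ was 1.03 ± 0.26, or 2.05-fold (adjusted p = 0.0891; 0.015 with the block). In Cic-/- the call was lost without clone 4, 5, 6 or 7 when the clone was not a block (adjusted p up to 0.14), and when the Cic-/- arrays alone were fitted (0.257), while with the block it held without any 1 clone (up to 0.0212). In Cic+/+ the blocked call was lost without clone 1, 3 or 4 (up to 0.0811). Of its 13 probesets, 12 were higher with EGF in Cic-/- and all 13 in Cic+/+.

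Slc6a11, a GABA carrier of astrocytes (GAT3), lay at 11.36 to 13.04 over the 14 arrays. Clones 5 to 7 stood at 11.83, 12.25 and 11.66 with EGF, against 12.91, 13.04 and 12.61 without it. Clones 1 to 4 stood at 11.36, 11.72, 12.32 and 12.16 with EGF, against 12.54, 13.03, 12.97 and 12.73 without it. The 2 media did not overlap in either genotype, and all 13 probesets were lower with EGF in both. The change was -0.94 ± 0.24 in Cic-/- (adjusted p = 0.164; 0.0218 with the block) and -0.92 ± 0.21 in Cic+/+ (adjusted p = 0.0625; 0.00605 with the block). The blocked call was lost without clone 5, 6 or 7 in Cic-/- (adjusted p up to 0.148) and without clone 2 in Cic+/+ (0.0815). Of the other genes in this group, the creatine carrier Slc6a8, on the X chromosome, differed by -0.12 ± 0.18 and -0.22 ± 0.16 and the GABA carrier Slc6a13, whose window holds the octamer, by -0.04 ± 0.30 and 0.47 ± 0.26, in Cic-/- and Cic+/+, without passing.

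Slc6a9 (GlyT1), the glycine carrier of glia, stood at 8.57, 8.28 and 8.27 in clones 5 to 7 with EGF, against 9.96, 9.54 and 8.97 without it. In clones 1 to 4 it stood at 7.72, 8.01, 7.94 and 8.28 with EGF, against 8.24, 9.32, 9.71 and 9.58 without it. Clone 1 without EGF was the low one of its group and lay just under clone 4 with EGF, so the Cic+/+ media overlapped, and the Cic-/- media did not. The change was -1.11 ± 0.33 in Cic-/- (adjusted p = 0.238; 0.0413 with the block) and -1.22 ± 0.29, or 2.33-fold, in Cic+/+ (adjusted p = 0.068; 0.00703 with the block). Without clone 1 the Cic+/+ change was -1.46 and passed without the block too (adjusted p = 0.012). The blocked call was lost without any clone but clone 1 in Cic-/- (up to 0.203) and without clone 2 or 3 in Cic+/+ (up to 0.0775). With the mean of its probesets the Cic+/+ change was -0.68 (adjusted p = 0.129 without the block). Of its 16 probesets, 11 were lower with EGF in Cic-/- and 12 in Cic+/+, while 5 and 4 were higher. Further probesets on the array name Slc6a9 together with Ccdc24 and were left out of its value. The glycine and proline carriers Slc6a5 and Slc6a7 and the monoamine carriers Slc6a2, Slc6a3 and Slc6a4 lay at or under a mean level of 5.30, and 0 of these 5 passed in either fit of any comparison.

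Of the cationic amino acid carriers, Slc7a2 (CAT2), which takes up arginine and lysine, fell with EGF. It stood at 6.62, 6.64 and 6.68 in clones 5 to 7 with EGF, against 7.26, 7.59 and 7.60 without it. In clones 1 to 4 it stood at 6.72, 6.89, 6.38 and 6.89 with EGF, against 7.71, 7.97, 7.19 and 7.33 without it. The media did not overlap in either genotype, and the changes were nearly equal. They were -0.84 ± 0.20, or 1.79-fold, in Cic-/- (adjusted p = 0.129; 0.0163 with the block) and -0.83 ± 0.18, or 1.78-fold, in Cic+/+ (adjusted p = 0.043; 0.0043 with the block). Without the block the Cic+/+ call was lost on leaving out any 1 of the 7 clones (adjusted p of 0.0502 to 0.238) with the brightest probeset (-0.62, adjusted p = 0.234) and when the Cic+/+ arrays alone were fitted (0.0785), while with the block it held without any 1 clone (up to 0.0402). The blocked Cic-/- call was lost without clone 5, 6 or 7 (up to 0.136), and with the brightest probeset the Cic-/- change was -1.32 (adjusted p = 0.0615 without the block).

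Slc7a14, a lysosomal relative of these carriers, stood at 4.75, 4.49 and 4.55 in clones 5 to 7 with EGF, against 5.25, 4.94 and 5.45 without it, and at 5.07, 5.05, 5.08 and 5.51 in clones 1 to 4 with EGF, against 5.25, 5.31, 5.30 and 5.69 without it. All of these lie near the dim limit. The change was -0.62 ± 0.18 in Cic-/- (adjusted p = 0.238; 0.0413 with the block) and -0.21 ± 0.16 in Cic+/+ (adjusted p = 0.639; 0.366 with the block). Only 7 of its 12 probesets were lower with EGF in each genotype, and with the brightest probeset the Cic-/- value was 0.13, so the value depends on the probesets taken. The blocked Cic-/- call was lost without clone 2, 3, 5, 6 or 7 (up to 0.218). Slc7a1 (CAT1), the general arginine carrier of dividing cells, went both ways, with differences of 0.47, 1.54 and -0.82 in clones 5 to 7, against -0.71, 0.72, 0.47 and 0.70 in clones 1 to 4, and it passed in neither genotype.

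**Figure D2:**
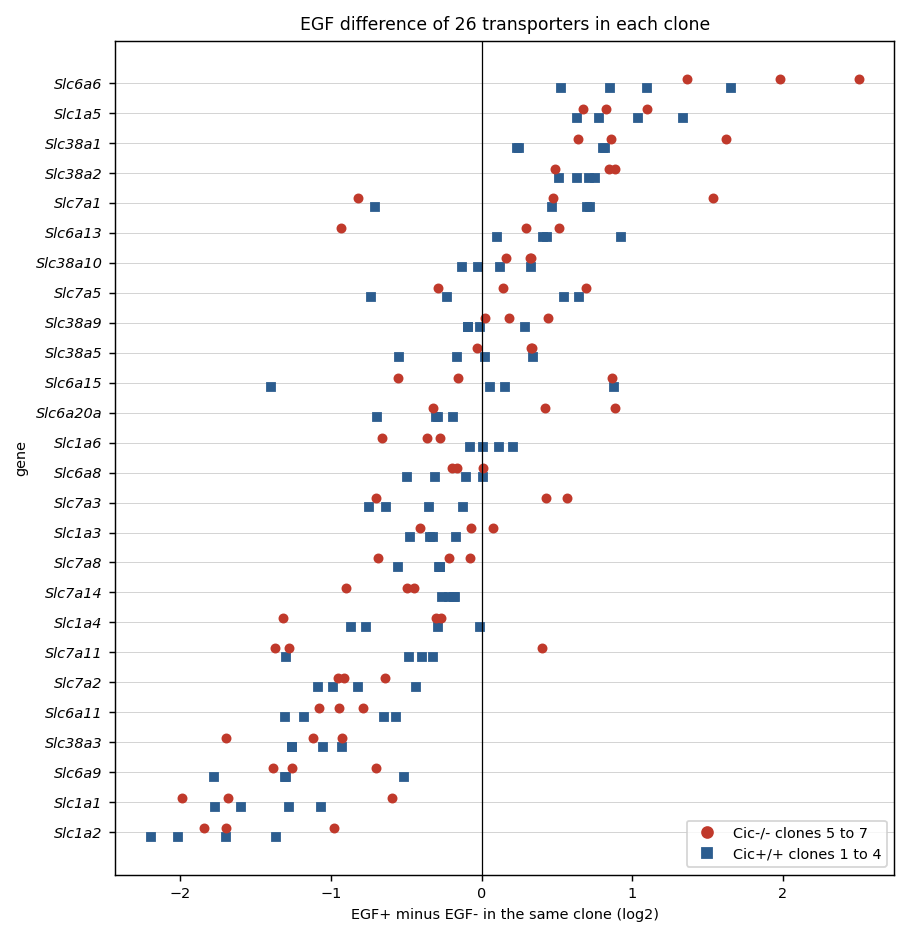
EGF difference (EGF+ minus EGF- of the same clone, log2, x axis) of 26 transporter genes (y axis, ordered by their mean), with circles for Cic-/- clones 5 to 7 and squares for Cic+/+ clones 1 to 4. All 7 points lie right of 0 for Slc6a6, Slc1a5, Slc38a1 and Slc38a2 and left of 0 for Slc1a2, Slc1a1, Slc6a9, Slc38a3, Slc6a11, Slc7a2, Slc1a4, Slc7a14 and Slc7a8, while the points of Slc7a1, Slc6a15 and Slc7a5 spread over both sides.

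Among the glutamine carriers, Slc38a3 of system N lay lower with EGF in all 7 clones, and Slc38a1 and Slc38a2 of system A lay higher. Slc38a3 (SNAT3), the system N carrier through which astrocytes handle glutamine, stood at 11.01, 10.49 and 10.42 in clones 5 to 7 with EGF, against 12.12, 12.18 and 11.35 without it. In clones 1 to 4 it stood at 9.83, 10.94, 11.13 and 11.23 with EGF, against 11.09, 12.20, 12.18 and 12.16 without it. Clone 1 was the low one in both Cic+/+ groups, and its own difference of -1.26 was like that of clone 2. The change was -1.25 ± 0.38, or 2.37-fold, in Cic-/- (adjusted p = 0.25; 0.0342 with the block) and -1.12 ± 0.33, or 2.18-fold, in Cic+/+ (adjusted p = 0.145; 0.0164 with the block). Of its 21 probesets, 20 were lower with EGF in Cic-/- and 21 in Cic+/+, and the blocked calls were lost without clone 2, 3, 5, 6 or 7 in Cic-/- (up to 0.203) and without clone 2, 3 or 4 in Cic+/+ (up to 0.111). The other system N carrier, Slc38a5, on the X chromosome, lay at the dim limit (3.90 to 4.91) and passed in no fit.

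The system A carriers Slc38a2 (SNAT2) and Slc38a1 (SNAT1), which take up glutamine and alanine, were higher with EGF in all 7 clones without passing in either fit above. Slc38a2 differed by 0.85, 0.89 and 0.49 in clones 5 to 7, against 0.76, 0.71, 0.52 and 0.63 in clones 1 to 4. Its change was 0.74 ± 0.30 in Cic-/- (adjusted p = 0.406; 0.0874 with the block) and 0.65 ± 0.26 in Cic+/+ (adjusted p = 0.296; 0.0563 with the block), and it passed in both with the clone as a fixed block (0.0209 and 0.0116). Slc38a1 differed by 1.62, 0.86 and 0.64 in clones 5 to 7, against 0.24, 0.82, 0.81 and 0.25 in clones 1 to 4. Clone 5 was far below the other clones in both media, at 8.99 with EGF and 7.37 without it, where the other clones lay between 10.60 and 11.18 with EGF and between 9.78 and 10.94 without it. Its change was 1.04 ± 0.62 in Cic-/- and 0.53 ± 0.54 in Cic+/+, and it passed only in Cic-/- with the clone as a fixed block (adjusted p = 0.0244). Of the remaining Slc38a genes, Slc38a9, which signals lysosomal arginine to mTORC1, differed by 0.22 ± 0.14 and 0.02 ± 0.12 and Slc38a10 by 0.27 ± 0.21 and 0.07 ± 0.18, in Cic-/- and Cic+/+, without passing.

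None of the 7 tested light chains of the heteromeric exchangers passed with EGF in either genotype and either fit. Slc7a5 (LAT1), which brings leucine into dividing cells, differed by 0.18 ± 0.34 in Cic-/- and 0.06 ± 0.29 in Cic+/+, with both signs among the clones of each genotype. Slc7a11 (xCT), which exchanges glutamate for cystine and feeds glutathione synthesis, differed by -1.28, 0.40 and -1.37 in clones 5 to 7, against -1.30, -0.32, -0.40 and -0.48 in clones 1 to 4, with changes of -0.75 ± 0.39 and -0.62 ± 0.34 in Cic-/- and Cic+/+. The heavy chain Slc3a2, which takes the light chains to the membrane, differed by 0.00 ± 0.19 in Cic-/- and -0.01 ± 0.16 in Cic+/+. The 21 tested genes that are not among the 26 plotted by clone, Slc1a7 included, ranged from -0.41 to 0.44 in Cic-/- and from -0.51 to 0.41 in Cic+/+.

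Markers of other cell types moved with EGF as well, and in bulk arrays fewer cells of a type cannot be told apart from less RNA per cell. Of 9 astrocyte markers, 0 passed in Cic-/- and 1 with the block (Aqp4, the astrocyte water channel, -1.72 ± 0.37 without the block, adjusted p = 0.0758), and 3 fell in Cic+/+: Aqp4 (-2.28 ± 0.32, adjusted p = 0.00379), S100b (-2.14 ± 0.44) and the gap junction gene Gja1 (-0.88 ± 0.15). With the block 5 of 9 passed in Cic+/+, Fgfr3 (-0.77) and Atp1b2 (-0.65) in addition. Their mean level was 8.98 to 9.02 in Cic-/- with EGF, against 9.47 to 9.64 without it, and 8.69 to 9.12 in Cic+/+ with EGF, against 9.66 to 9.96 without it. Of 9 markers of myelinating oligodendrocytes, 0 passed in Cic-/- in either fit and 6 fell in Cic+/+ (7 with the block), with mean levels of 5.70 to 6.04 in Cic-/- with EGF, against 5.94 to 6.16 without it, and of 6.16 to 6.41 in Cic+/+ with EGF, against 7.52 to 7.997 without it. Gpr17, a marker of oligodendrocyte progenitors, fell in both (-2.46 ± 0.34 in Cic-/- and -2.71 ± 0.29 in Cic+/+) and was the only 1 of 7 such markers to pass without the block. With the block Pdgfra, another progenitor marker, was lower in Cic-/- too (-1.80, adjusted p = 0.00978). The mean levels of the 7 were 8.95 to 9.42 in Cic-/- with EGF, against 9.82 to 10.59 without it, and 9.77 to 10.31 in Cic+/+ with EGF, against 10.33 to 10.73 without it. Their median change was -0.58 in Cic-/-, with 0 of 7 above 0, but -0.04 in Cic+/+, with 3 of 7 above 0. The 11 dividing-cell markers had mean levels of 7.90 to 9.36 in Cic-/- with EGF, against 7.99 to 9.44 without it. In Cic+/+ these levels were 9.45 to 10.25 with EGF, against 9.13 to 9.47 without it. In either genotype 0 of 11 passed. All 11 lay above 0 with EGF in Cic+/+ (median 0.46), against 4 of 11 in Cic-/- (median -0.03). With the block 1 of 12 neuroblast and neuron markers passed in Cic-/-, Dcx (-2.74, adjusted p = 0.00393), while 5 of the 12 lay above 0. In Cic+/+ another of this list, Cd24a, was higher with the block (0.71, adjusted p = 0.0208). Of 9 stem cell markers only Nes passed with the block, higher in Cic+/+ (1.32, 0.0226). There 3 of the 9 lay above 0, with a median of -0.08. Of 6 endothelial and pericyte markers, 1 was higher with the block in each genotype. These were Cdh5 in Cic-/- (1.06, adjusted p = 0.0413) and Pecam1 in Cic+/+ (0.57, 0.0187). Of the 6, 3 lay above 0 in Cic-/- and 5 in Cic+/+. The part of these cell types in the transporter changes was not tested, and the myelin markers had a median change of -0.13 in Cic-/- and -1.68 in Cic+/+.

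The next question was whether the EGF response of the transporters depends on Cic. The difference between the EGF effects (Cic-/- minus Cic+/+) passed for 0 of 47 genes by limma in either fit, where 0.00576% of all tested genes passed without the block and 0.0403% with it. An unadjusted p under 0.05 was found for 1 of 47, against 2.86% of all tested genes. That gene was Slc6a6, whose EGF effect was larger in Cic-/- by 0.92 ± 0.40 (unadjusted p = 0.0382, adjusted p = 1, and 0.68 with the block). Its differences were 1.98, 1.36 and 2.51 in clones 5 to 7, against 1.66, 0.53, 0.85 and 1.10 in clones 1 to 4, so clone 6 lay under clone 1. The other 46 genes lay between -0.51 (Slc6a13) and 0.70 (Slc6a20a). Across the 47 genes the EGF changes of the genotypes correlated at 0.897, against 0.634 over all genes tested, a description over genes that are not independent replicates. The signs were the same in 32 of 47 genes, or 68.1%, against 67.6% of all tested genes, so the sign count alone did not set the transporters apart. For 5 genes lower with EGF in both genotypes, with the SE of the fit with the block, the difference was 0.31 ± 0.47 for Slc1a2, 0.00 ± 0.44 for Slc1a1, -0.12 ± 0.36 for Slc38a3, -0.01 ± 0.25 for Slc6a11 and -0.01 ± 0.21 for Slc7a2. For Slc6a9 it was 0.11 ± 0.34, and a p that misses the threshold does not show that the genotypes respond alike.

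**Figure D3:**
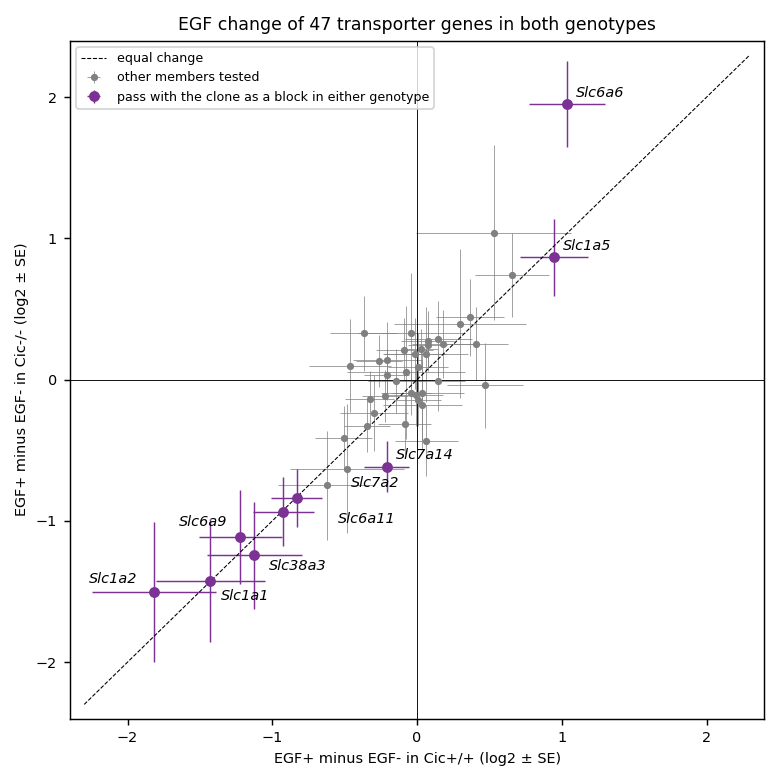
EGF change (EGF+ minus EGF-, log2 ± SE without the block) in Cic-/- (y axis) against Cic+/+ (x axis) for the 47 tested transporter genes, with the genes that passed with the clone as a block in purple and the line of equal change dashed. Most purple points lie near the line, and Slc6a6 lies above it at 1.95 in Cic-/- and 1.03 in Cic+/+.

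The last comparison asks which transporters differ with loss of Cic itself. By limma 0 of 47 genes passed with EGF and 0 of 47 without it, also with the clone as a block, where 0.317% and 0.553% of all tested genes passed without the block and 0.363% and 0.697% with it. An unadjusted p under 0.05 was found for 6 of 47 with EGF and 5 of 47 without it, against 10.6% and 10.8% of all tested genes. Cic-/- and Cic+/+ arrays did not overlap for 8 of 47 genes with EGF and 5 of 47 without it, against 11.7% and 9.38% of all tested genes. The changes (Cic-/- minus Cic+/+) ran from -1.13 to 0.88 with EGF, with a median of 0.04, and from -1.26 to 0.57 without it, with a median of -0.01. The medians over all tested genes were 0.02 and 0.00. Other markers differed by genotype too. The 11 dividing-cell markers had mean levels of 7.90 to 9.36 in Cic-/-, against 9.45 to 10.25 in Cic+/+, with EGF. Without EGF these levels were 7.99 to 9.44 against 9.13 to 9.47. In either medium 0 of 11 passed and 0 lay above 0, with medians of -0.96 with EGF and -0.48 without it. An unadjusted p under 0.05 was found for 6 with EGF and 1 without it, against 10.6% and 10.8% of all tested genes. Of the 9 myelinating oligodendrocyte markers, 1 was lower in Cic-/- with EGF and 6 were lower without it at an adjusted p under 0.05. The progenitor marker Pdgfra was lower in Cic-/- with EGF (-2.61 ± 0.38, adjusted p = 0.0082), and Cd24a, of the neuroblast list, was higher without it (1.33 ± 0.20, adjusted p = 0.0069). The part of these cells in the values below was not tested.

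Slc7a8 (LAT2), a light chain that exchanges neutral amino acids, came closest to passing. It stood at 5.82, 5.40 and 6.01 in clones 5 to 7, against 6.43, 6.62, 6.34 and 6.57 in clones 1 to 4, with EGF. Without EGF it stood at 5.90, 6.09 and 6.22 in clones 5 to 7, against 6.71, 7.18, 6.62 and 6.84 in clones 1 to 4. Every Cic-/- array lay below every Cic+/+ array in the same medium. The change was -0.75 ± 0.17 with EGF (adjusted p = 0.104) and -0.77 ± 0.17 without it (adjusted p = 0.0674). With the mean of its 11 probesets in place of the median it passed in both, at -0.79 (adjusted p = 0.011) and -0.85 (adjusted p = 0.0034), and with the brightest probeset alone it was -0.03 and 0.01. Probeset 17306481 lay lowest, at -3.13 with EGF and -3.53 without it, and its Cic-/- means of 3.55 and 3.57 were under the dim limit, so the size of that difference is not exact. Without this probeset, an alternative chosen after the values were seen, the change was -0.50 with EGF (adjusted p = 0.244) and -0.66 without it (adjusted p = 0.0834).

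**Figure D4:**
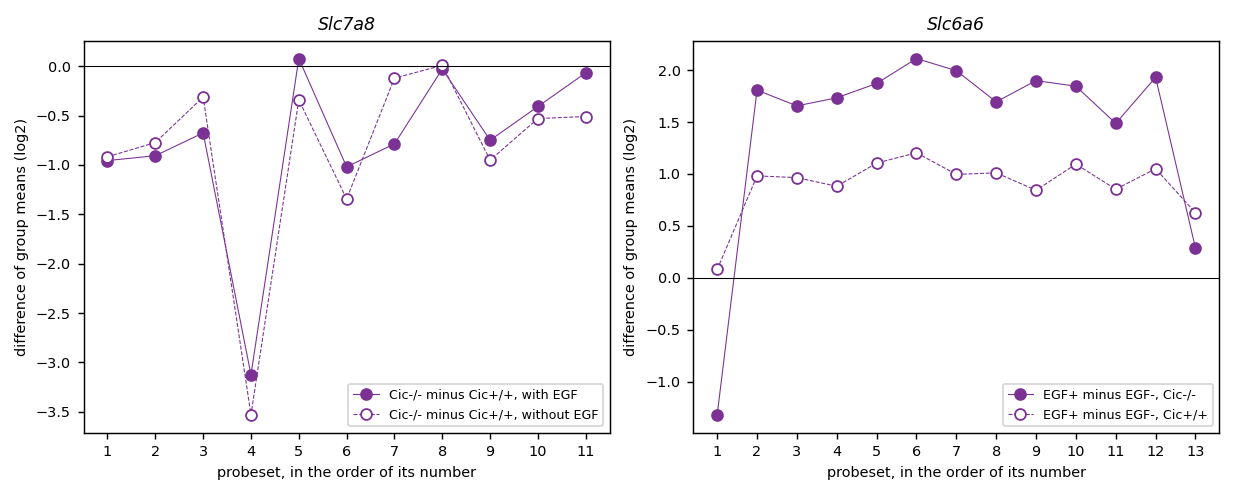
Difference of group means (log2, y axis) at each probeset in the order of its number (x axis), for Slc7a8 between genotypes with EGF (filled) and without it (open), and for Slc6a6 between media in Cic-/- (filled) and Cic+/+ (open). Of the 11 Slc7a8 probesets 10 lie below 0 in each medium, 1 of them far below the rest, while 12 and 13 of the 13 Slc6a6 probesets lie above 0 in Cic-/- and Cic+/+.

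Other genes differed by genotype in single media or with wide spread, and none of them passed. For Slc7a14, at the levels given above, the genotypes did not overlap with EGF (-0.58 ± 0.17, adjusted p = 0.202). Without EGF it differed by -0.18 ± 0.17. Its levels lie near the dim limit, and only 7 of its 12 probesets were lower in Cic-/- with EGF. Slc6a15 (B0AT2), a neuronal carrier of branched-chain amino acids and proline, stood at 3.88, 3.93 and 4.80 in clones 5 to 7, against 6.20, 4.49, 4.59 and 6.07 in clones 1 to 4, with EGF. Without EGF it stood at 4.44, 4.09 and 3.93 in clones 5 to 7, against 5.32, 5.89, 4.53 and 5.91 in clones 1 to 4. The Cic-/- means lay under the dim limit, so its changes of -1.13 ± 0.44 (adjusted p = 0.372) and -1.26 ± 0.44 (adjusted p = 0.293) are not exact, and with the brightest probeset the value with EGF was -0.34. The same holds for Slc7a3 (CAT3), on the X chromosome, at 3.94, 4.42 and 4.07 in clones 5 to 7 without EGF, against 5.71, 4.75, 5.53 and 5.08 in clones 1 to 4. Its change without EGF was -1.12 ± 0.31 (adjusted p = 0.154) and, without clone 4, the clone with little Xist, -1.19, while with the brightest probeset it was -0.12.

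Slc6a6 differed by genotype without EGF, where clones 5 to 7 stood below clones 1 to 4 as given above (-0.97 ± 0.28, adjusted p = 0.186), and hardly with EGF (-0.06 ± 0.28). These values share arrays with its EGF changes and are no separate evidence. Slc1a3 stood at 12.52, 12.46 and 12.28 in clones 5 to 7 without EGF, against 12.79, 13.15, 12.99 and 13.01 in clones 1 to 4, which do not overlap (-0.57 ± 0.18, adjusted p = 0.227), and it differed by -0.38 ± 0.18 with EGF. With the brightest probeset the value without EGF was -0.26. On the other side, Slc1a2 had the highest value in each medium, at 0.88 ± 0.46 with EGF and 0.57 ± 0.46 without it, with overlapping arrays. Without clone 5 these values were 0.37 and 0.32 and no longer the highest, since Slc6a20a with EGF (0.61) and Slc7a5 without it (0.35) lay above them. Slc7a5 stood at 10.52, 10.34 and 10.44 in clones 5 to 7 with EGF, against 10.01, 10.04, 9.38 and 10.18 in clones 1 to 4, which do not overlap (0.53 ± 0.31, adjusted p = 0.587), and it differed by 0.41 ± 0.31 without EGF, but by 0.18 and 0.03 with the brightest probeset. Slc6a20a, a proline carrier that lay near the dim limit, also did not overlap with EGF, at 5.35, 5.89 and 5.35 in clones 5 to 7, against 5.21, 4.97, 4.95 and 4.91 in clones 1 to 4 (0.52 ± 0.25, adjusted p = 0.486), and differed by -0.18 ± 0.25 without it. With the mean of probesets its value with EGF was 0.07. Slc38a10 stood at 9.33, 9.26 and 9.03 in clones 5 to 7 with EGF, against 8.22, 9.04, 8.76 and 8.71 in clones 1 to 4, with clone 2 just above clone 7 (0.52 ± 0.20, adjusted p = 0.351, and 0.22 with the mean of probesets). Slc38a1 was at -0.62 ± 0.58 and -1.13 ± 0.58, with and without EGF, and at -0.03 and -0.26 without clone 5.

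**Figure D5:**
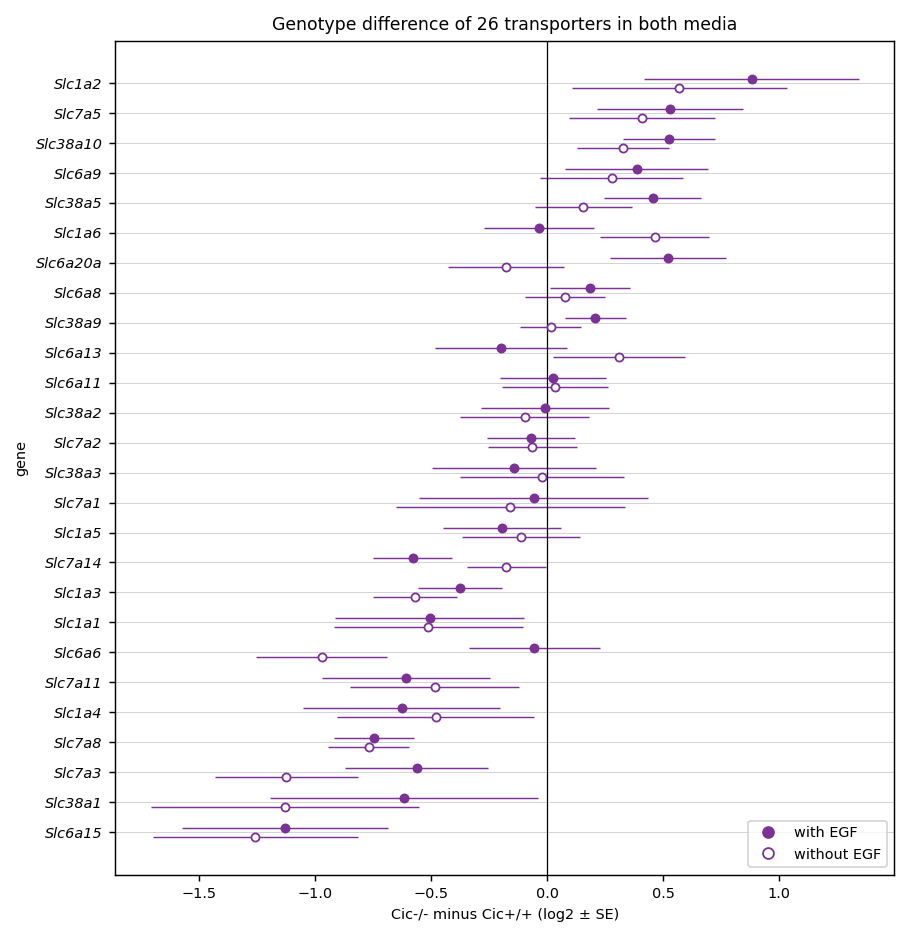
Genotype difference (Cic-/- minus Cic+/+, log2 ± SE, x axis) of 26 transporter genes (y axis) with EGF (filled) and without it (open). Slc7a8 has nearly equal values in both media, at -0.75 and -0.77, and none of the 26 passed at an adjusted p under 0.05.

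Genes that work with these transporters were counted in the same way. The lists of 2 heavy chains, 17 other amino acid carriers of the cell surface and lysosome, 9 mitochondrial amino acid carriers, 35 amino acid response genes of ATF4, 16 NRF2 target genes and 29 genes of amino acid sensing by mTORC1, counted as tested, had 0 passing genes in any comparison by limma without the block. With the clone as a block, where 5.17% of all tested genes passed with EGF in Cic+/+ and 2.08% in Cic-/-, 2 of the 17 other carriers passed in Cic+/+, the neutral amino acid carrier Slc43a1 (higher, 0.84, adjusted p = 0.0309) and the peptide carrier Slc15a2 (lower, -1.02, adjusted p = 0.0203). In the ATF4 list 1 of 35 passed with the block in Cic+/+, Chac1, which breaks down glutathione (-0.89, adjusted p = 0.015 with the block), while Asns, the asparagine synthetase gene, was at 0.37 ± 0.32 and 0.36 ± 0.27 in Cic-/- and Cic+/+. Of the 16 NRF2 genes, 1 passed with the block in Cic-/- and 4 in Cic+/+. Nfe2l2, which encodes NRF2 itself, was higher in both genotypes with the block, by 0.73 in Cic-/- (adjusted p = 0.0103) and by 0.61 in Cic+/+ (0.00715). Gclm (-0.52), Osgin1 (-0.54) and Me1 (-0.68) were lower in Cic+/+ with the block, at adjusted p of 0.0247, 0.0391 and 0.045. In the other 2 lists and for the heavy chains, 0 passed with the block.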

How the data were processed

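All values come from 1 deposited matrix of probeset signals on the log2 scale, which the authors made with RMA (background correction, quantile normalization and summary) per the submitters' processing notes. Its version and the genome build are not given in the labels. Of 269751 probesets, 233753 name 1 gene, 5106 several and 30892 none, and only the first kind was used. A gene's value is the median of its probesets (779 for the 53 genes, 6 to 22 each). The dimmest 25% of genes, under a mean of 4.40, were left out. Changes were tested in R 4.3.3 with limma 3.58.1 (a model of 4 group means over 14 arrays, 10 residual and 4.06 prior degrees of freedom, Benjamini-Hochberg over 17364 genes, threshold 0.05), read with the package data.table (version 1.17.8) and plotted with Python 3.11.15, pandas 2.3.3 and matplotlib 3.10.9. The fit without the block was tested on simulated data with independent noise, for genotype with EGF and for EGF in each genotype. It recovered 8% to 10% of the genes changed by 0.5 (log2) and 61% to 70% of those changed by 1. The fit with the block was not simulated. Only a gene that passed is said to have risen or fallen, with the block named where it passed with it alone.

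The labels give the 2 cultures of an animal the same clone number. Their deviations from the group means correlated at 0.584, 0.156 and 0.616 for clones 5, 6 and 7. For clones 1, 2, 3 and 4 they correlated at 0.474, 0.323, 0.459 and 0.337. Against a culture of another clone of that genotype in the other medium, the highest was 0.163, 0.163 and 0.120 for clones 5 to 7. For clones 1 to 4 it was -0.073, -0.039, 0.001 and 0.001. The values thus pair the arrays of every clone but clone 6, whose own 0.156 lay just under 0.163. The consensus correlation of the random block was 0.348. Sequences are from RefSeq (GRCm38.p6), which holds all 53 symbols.

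Every gene of the 4 families may be named. Values on each array are given for those passing in a comparison, the 3 highest and 3 lowest changes of each, and a set list of well-known carriers. Slc1a7 was added by role. The members and lists were chosen with earlier results of these data known. Alternatives were the mean or brightest probeset, no or a stricter dim filter, a trended robust prior, centring, quantile normalization, a random or fixed clone block, only the arrays compared and leaving out each clone. The block with a clone left out, and Slc7a8 without 1 probeset, were added later.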

Additional observations from a re-analysis of the deposited data

Results flagged for a closer look

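In groups of 4 arrays, a single array stood far from the others (by Dixon's criterion) in 8 of 94 cases tested. About 1 in 20 is the nominal rate for independent normal values. The 94 cases are not independent, since both media hold the same clones, and the share over all tested genes was not computed. The count therefore does not set the transporters apart from other genes. All 8 concern Cic+/+ clones, since groups of 3 were not tested. Clone 1 without EGF was high for the arginine carrier Slc7a1, at 9.53 against 7.38 to 7.71 in the other clones, and for the light chain gene Slc7a6, at 9.995 against 9.04 to 9.15, and low for the glutamine carrier Slc38a3, at 11.09 against 12.16 to 12.20. With EGF, clone 1 was low for Slc38a8, at 4.72 against 5.42 to 5.50. Clone 4 was high for Slc7a14 in both media, at 5.51 against 5.05 to 5.08 with EGF and at 5.69 against 5.25 to 5.31 without it, and for Slc1a7 without EGF, at 5.42 against 4.98 to 5.05. Clone 2 was low for the creatine carrier Slc6a8 with EGF, at 10.36 against 10.72 to 10.75. Without clone 1, the Cic+/+ EGF change of Slc38a3 was -1.08 against -1.12 with it.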

How the results depend on the processing

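The pairing by clone moved the counts most: 9 of the 47 transporter genes passed for EGF in Cic-/- and 8 in Cic+/+ with the clone as a random block, and 11 and 9 as a fixed block, against 1 and 1 without it, and the block changed no call between genotypes or in the difference of the EGF effects. With a clone left out as well, the blocked counts were 2, 1 and 1 in Cic-/- without clone 5, 6 or 7 and 9, 3, 3 and 6 without clone 1, 2, 3 or 4, and in Cic+/+ 8, 8 and 9 without clone 5, 6 or 7 and 7, 4, 3 and 5 without clone 1, 2, 3 or 4. Without the block, leaving out a clone gave 0 to 2 in each genotype. With the mean of probesets 1 gene passed between genotypes in each medium, against 0 (Slc7a8). With the brightest probeset 0 passed for EGF in Cic+/+; with the stricter dim filter, the trended prior or only the arrays compared 2 did. With only the arrays compared these were Slc1a1 and Slc1a2 in place of Slc7a2, and 0 passed in Cic-/-, where Slc6a6 was lost. Centring, quantile normalization and no dim filter left these counts as they were. Over all genes the count for EGF was 361 in Cic-/- and 897 in Cic+/+ with the random block, against 33 and 156 without it. Of 2082 values of 26 named genes under other settings, 114 turned sign, 35 of them by the choice of probesets, and 0 where the unblocked test had passed. Genes near a level of 4.40, such as Slc6a15, Slc7a3, Slc38a5 and Slc7a14, are limited by their low signal.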

Other observations

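The NRF2 target genes, which serve glutathione synthesis and detoxification beside the cystine carrier Slc7a11, lay lower in Cic-/- by a median of -0.32 with EGF (3 of 16 above 0) and -0.42 without it (3 of 16 above 0), against medians of 0.02 and 0.00 over all tested genes. By limma 0 of 16 passed in either medium, in either fit, while 2 with EGF and 6 without it had an unadjusted p under 0.05, against 10.6% and 10.8% of all tested genes. Their mean level was 9.26 to 9.35 in Cic-/- with EGF, against 9.31 to 9.64 in Cic+/+, and 9.31 to 9.54 in Cic-/- without EGF, against 9.61 to 10.20 in Cic+/+. The mitochondrial amino acid carriers lay below 0 (Cic-/- minus Cic+/+) with EGF in 9 of 9 tested genes, with a median of -0.21, against 0.02 over all tested genes. None of the 9 passed, and 0 had an unadjusted p under 0.05. Without EGF 2 of 9 lay above 0, with a median of -0.17, against 0.00 over all tested genes. The share of all tested genes below 0 was not computed, and several lists and comparisons were looked at.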
